A study of Mus musculus with 15 samples.

Results

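The unfolded protein response and the integrated stress response were followed through 10 genes in dendritic cells (DCs) given curdlan with or without FK506. The genes were Hspa5, Dnajb9, Herpud1, Xbp1, Atf4, Ddit3, Trib3, Chac1, Asns and Sesn2, chosen by name with earlier results of these data known. Each was read from the probe set whose platform symbol was exactly that name, and all 10 were found, each on 1 such probe set, among the 19937 genes tested. Expression was measured in D1 cells, a splenic DC line of C57BL/6 origin kept in long-term culture with growth factors, on 15 one-colour arrays. The 5 groups held 3 arrays each: nontreated cells (NT), cells given curdlan at 10 µg/ml for 2 h or for 4 h, and cells given curdlan together with FK506 for 2 h or for 4 h. Curdlan is a beta-glucan that binds dectin-1, and FK506 blocks calcineurin, the phosphatase that lets NFAT proteins enter the nucleus. The NT arrays were the same for both times, and FK506 without curdlan is not analysed here, so FK506 was read only in cells that also had curdlan. D1 is 1 cell line, and the labels call the arrays of a group biological replicates without saying how the cultures were kept apart. The p values therefore weigh each difference only against the spread between these arrays within their groups.

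Proteins bound for the cell surface or for secretion are folded in the endoplasmic reticulum (ER). When unfolded protein builds up there, the sensors IRE1, PERK and ATF6 raise the production of chaperones and of the machinery that pulls misfolded protein out for degradation, which is the unfolded protein response. PERK also belongs to a family of kinases that phosphorylate the translation factor eIF2 in response to ER load, amino acid shortage, viral RNA or haem deficiency. This integrated stress response lowers general translation while favouring translation of ATF4, a transcription factor that drives genes for amino acid supply and, with CHOP, the product of Ddit3, genes linked to cell death. DCs secrete cytokines after stimulation, and the IRE1 and XBP1 branch is known for its part in DC development and survival.

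Promoter windows are shown for 4 of the genes because these windows held a match to a motif known from the ER or amino acid branch. Each window holds the 250 bases before the gene's start in RefSeq (GRCm38.p6), written in the direction of the gene, and all 10 genes were matched in that table. Capitals mark the matched bases. Herpud1 lies at chr8:94386179-94386428 on the plus strand, Hspa5 at chr2:34771840-34772089 on the plus strand, Chac1 at chr2:119350992-119351241 on the plus strand, and Asns at chr6:7693210-7693459 on the minus strand.
Herpud1: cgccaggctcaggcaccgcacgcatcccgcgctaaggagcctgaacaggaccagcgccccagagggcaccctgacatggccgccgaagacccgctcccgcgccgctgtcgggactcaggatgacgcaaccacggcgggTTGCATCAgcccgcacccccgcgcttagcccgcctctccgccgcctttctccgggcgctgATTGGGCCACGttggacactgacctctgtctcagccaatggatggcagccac
Hspa5: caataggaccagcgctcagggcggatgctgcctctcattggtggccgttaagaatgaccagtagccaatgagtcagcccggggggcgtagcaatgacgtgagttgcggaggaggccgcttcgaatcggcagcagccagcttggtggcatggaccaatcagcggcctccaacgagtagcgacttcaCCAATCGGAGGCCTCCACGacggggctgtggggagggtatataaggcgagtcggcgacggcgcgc
Chac1: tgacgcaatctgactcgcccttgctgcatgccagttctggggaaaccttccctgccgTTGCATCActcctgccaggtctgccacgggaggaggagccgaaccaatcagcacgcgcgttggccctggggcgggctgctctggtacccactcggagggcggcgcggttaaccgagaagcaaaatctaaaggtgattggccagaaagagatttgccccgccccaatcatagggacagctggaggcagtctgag
Asns: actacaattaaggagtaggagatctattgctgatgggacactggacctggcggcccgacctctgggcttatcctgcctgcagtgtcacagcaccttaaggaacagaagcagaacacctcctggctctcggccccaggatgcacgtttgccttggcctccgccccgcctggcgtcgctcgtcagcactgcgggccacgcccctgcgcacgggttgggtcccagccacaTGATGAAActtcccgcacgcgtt

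The ER stress element, searched on both strands as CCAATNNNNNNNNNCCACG, was in 0.113% of 32851 promoter windows of the same length and in 1 of the 10 genes, Hspa5, from 65 to 47 bases before the start. Its variant ERSE-II, searched as ATTGGNCCACG, was in 0.0304% of all windows and in Herpud1 alone among the 10, from 52 to 42 bases before the start. A C/EBP-ATF response element, the type of site bound by ATF4 with a C/EBP partner, was searched as TGATGNAA and was in 3.45% of all windows and 3 of the 10 genes. These were Herpud1, 112 to 105 bases before the start, Chac1, 193 to 186 bases before it, and Asns, 23 to 16 bases before it, with the Herpud1 and Chac1 matches lying on the opposite strand. The core TGACGTGG, known as a site for XBP1, was in 0.563% of windows and in 0 of the 10. The NFAT core GGAAAA was in 20.4% of windows and in those of Dnajb9 and Trib3, from 112 to 107 and from 203 to 198 bases before the start, both on the opposite strand. No matches to different motifs overlapped in the 10 windows. The motifs of the ER and amino acid branches were searched because they are known, and whether these genes hold them more often than others was not tested. These matches describe the letters of the windows, and binding was not measured on these arrays.

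The arrays carried DC markers: of 11 DC genes, 8 were above the upper quartile of gene means (log2 9.11) and 0 below the lower quartile (5.28), with Itgax at 12.19 and the class II gene H2-Ab1 at 12.91, and Flt3 was low at 5.83. Of 5 measured macrophage markers, many of which DCs share, 4 were above the upper quartile, as was 1 of 6 T cell genes (Cd5), and 0 of the measured B cell, NK cell, neutrophil, plasmacytoid DC and fibroblast genes. Mean correlations within a group lay between 0.9935 and 0.9991. The first NT array and the third curdlan array at 2 h (NT replicate 1 and curdlan 2 h replicate 3) were outlying, with array weights of 0.0781 and 0.119 and with the highest medians over the tested genes (6.94 and 6.88). In bulk RNA, fewer cells expressing a gene and less of its RNA per cell cannot be told apart.

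Curdlan raised 1 of the 10 genes at 2 h and 5 of 10 at 4 h. Herpud1 was the gene raised at 2 h, 1.65-fold. At 4 h Herpud1 (2.55-fold), Ddit3 (2.26-fold), Trib3 (2.11-fold), Chac1 (1.98-fold) and Dnajb9 (1.75-fold) were higher than in NT cells, and 0 of the 10 were lower at either time. A gene was called when its adjusted p in limma was under 0.05 and its fold change at least 1.5 (log2 0.585). By that rule 2.2% of all genes tested were higher and 1.4% lower at 2 h, and 5.05% were higher and 4.15% lower at 4 h. By adjusted p alone 6 of the 10 were higher at 2 h and 9 at 4 h, and 0 were lower at either time, where 7.19% of all genes were higher and 12.9% lower at 2 h, and 14.1% higher and 23.2% lower at 4 h. The median log2 fold change of the 10 was 0.15 at 2 h and 0.63 at 4 h, against −0.04 and −0.12 over all genes.

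**Figure D1:**
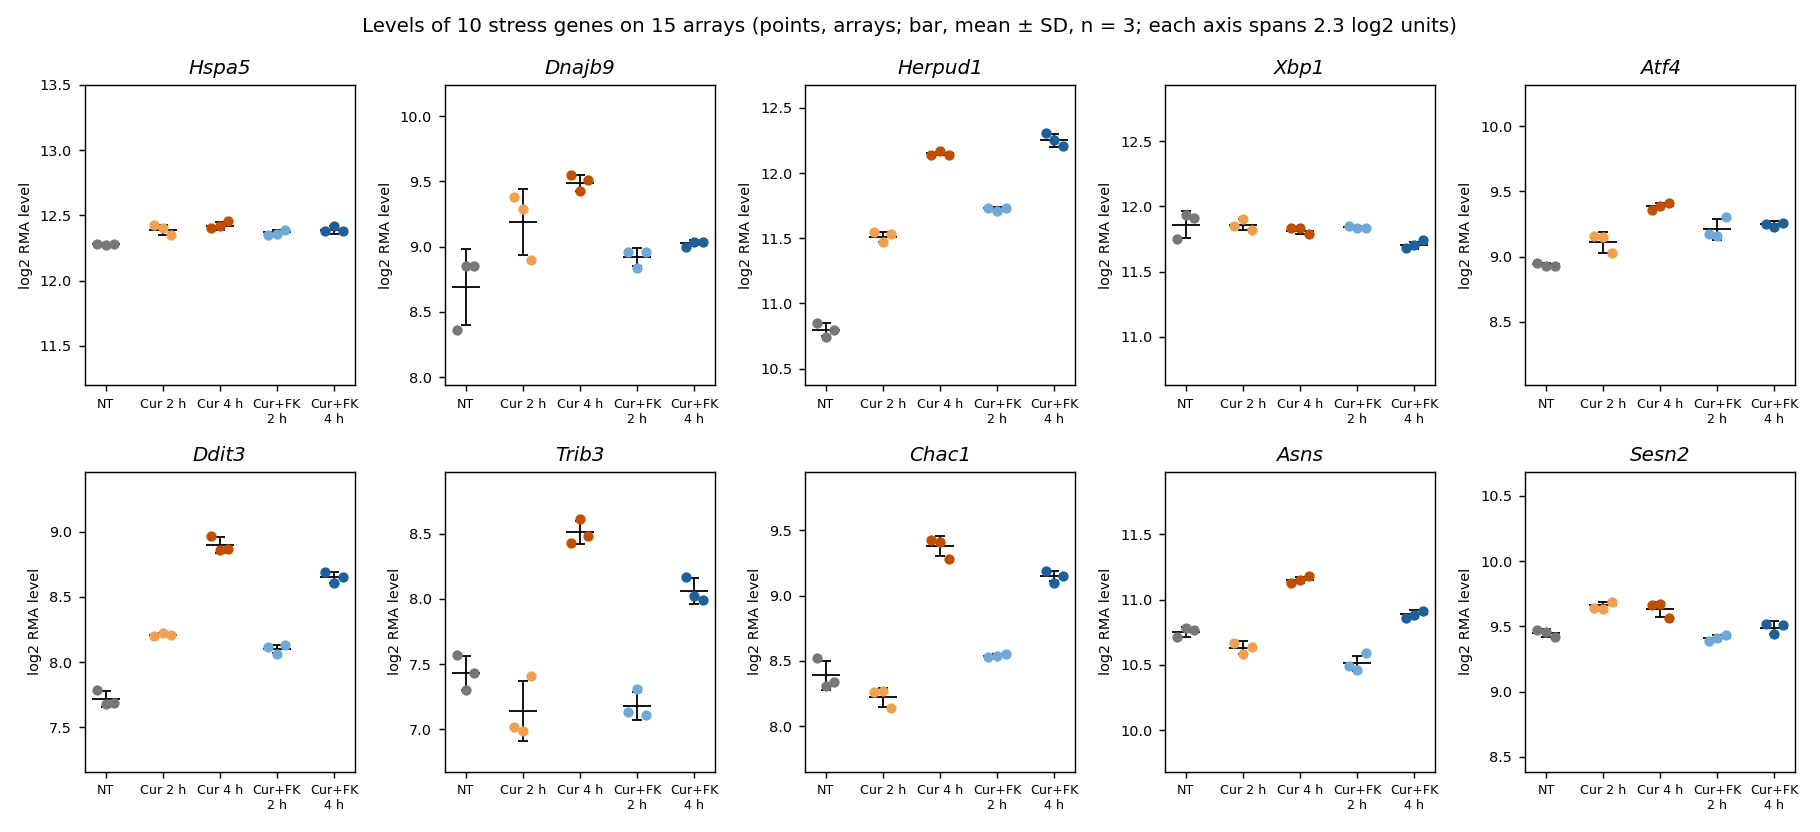
Log2 RMA level (vertical axis, log2 units, each panel spanning the same range around its own centre) of the 10 genes on each of the 15 arrays, by group (horizontal axis: NT, curdlan 2 h and 4 h, curdlan with FK506 2 h and 4 h). Points are arrays and bars are mean ± SD (n = 3); Herpud1 climbed from 10.80 in NT cells to 12.15 with curdlan at 4 h, Trib3, Chac1 and Asns were at their highest with curdlan alone at 4 h, and the group means of Hspa5 ran from 12.28 to 12.42.

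Among the ER genes, Hspa5 encodes BiP, the main ER chaperone and the protein that holds the sensors inactive. Its log2 level was 12.28, 12.27 and 12.28 on the NT arrays, 12.43, 12.40 and 12.35 with curdlan at 2 h, and 12.40, 12.42 and 12.46 at 4 h. The curdlan arrays all lay above the NT arrays, by small amounts. The log2 fold change was 0.12 ± 0.04 (SE) at 2 h (adjusted p = 0.0371) and 0.15 ± 0.04 at 4 h (adjusted p = 0.00639), under the fold threshold at both times, and the upper limit of the 95% interval at 4 h was 0.23. The adjusted p was 0.175 at 2 h after centring (0.16) and 0.18 at 4 h with the covariate (0.10). Hspa5 was in the brightest part of the array, with a mean above that of 99.4% of genes.

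Dnajb9 encodes ERdj4, a co-chaperone of BiP and a target of XBP1. Its level was 8.36, 8.85 and 8.85 in NT cells, 9.38, 9.29 and 8.90 with curdlan at 2 h, and 9.55, 9.43 and 9.51 at 4 h. Both outlying arrays, NT replicate 1 and curdlan 2 h replicate 3, were the lowest of their groups. The change was 0.50 ± 0.13 at 2 h (adjusted p = 0.013), which was not called, and 0.81 ± 0.13 at 4 h (adjusted p = 0.000209), which was. Without both outlying arrays the change at 4 h was 0.64 (adjusted p = 2.28e-07) and still called. With the median of the probe sets that carry no gene symbol as a covariate it was 0.28 (adjusted p = 0.0866) and the call was lost. At 2 h Dnajb9 was called when NT replicate 2 (0.59), NT replicate 3 (0.59) or curdlan 2 h replicate 3 (0.65) was left out. The 6 fits that each left out 1 array gave from 0.34 to 0.65 at 2 h. Without both outlying arrays the change at 2 h was 0.48 and not called.

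Herpud1 encodes HERP, an ER membrane protein of the complex that moves misfolded proteins out for degradation. It stood at 10.85, 10.74 and 10.80 in NT cells, at 11.55, 11.47 and 11.53 after 2 h of curdlan and at 12.14, 12.17 and 12.14 after 4 h, with no overlap between any of these groups. The change was 0.72 ± 0.04 at 2 h (adjusted p = 2.91e-08) and 1.35 ± 0.04 at 4 h (adjusted p = 1.85e-11). As deposited, Herpud1 had the largest change of the 10 genes at both times, and with the covariate Trib3 (1.44) was above Herpud1 (1.41) at 4 h. Herpud1 is the gene whose window holds both ERSE-II and the C/EBP-ATF element shown above. A link between these matches and the change of Herpud1 was not tested.

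Of the transcription factor genes, Xbp1 encodes the factor made active when IRE1 splices its mRNA. Its level was 11.75, 11.93 and 11.91 in NT cells, 11.85, 11.90 and 11.82 at 2 h, and 11.83, 11.83 and 11.79 at 4 h, and the groups overlapped. The change was 0.00 ± 0.05 at 2 h, with a 95% interval of −0.11 to 0.10, and −0.05 ± 0.05 at 4 h (−0.15 to 0.06). The sign at 4 h turned (0.06) when each array was centred on its median. At 4 h the change was −0.10 (adjusted p = 0.0304) without both outlying arrays and −0.18 (adjusted p = 0.0377) with the covariate, both under the fold threshold. The probe set gives 1 summary value over the transcript and does not separate spliced from unspliced Xbp1 mRNA.

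Atf4, whose product is controlled mainly through translation, stood at 8.95, 8.93 and 8.93 in NT cells, 9.16, 9.15 and 9.03 with curdlan at 2 h, and 9.36, 9.39 and 9.41 at 4 h. Its mRNA was above NT on every curdlan array and above all 2 h arrays at 4 h. The change was 0.18 ± 0.05 at 2 h (adjusted p = 0.0156) and 0.45 ± 0.05 at 4 h (adjusted p = 3.6e-06), short of the fold threshold at both times, and the adjusted p at 2 h was 0.0798 after centring (0.22).

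Ddit3 encodes CHOP, a factor that acts downstream of ATF4. On the NT arrays it stood at 7.79, 7.68 and 7.69, on the 2 h curdlan arrays at 8.20, 8.22 and 8.21, and on the 4 h curdlan arrays at 8.97, 8.86 and 8.87. These groups did not overlap. The change was 0.49 ± 0.05 at 2 h (adjusted p = 2.8e-06), a fold of 1.40 that was not called, and 1.18 ± 0.05 at 4 h (adjusted p = 1.45e-10).

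Trib3, Chac1 and Asns had another course, with 2 h means below NT and higher means at 4 h. Trib3 encodes a pseudokinase that is induced by ATF4 and CHOP and restrains them. It stood at 7.57, 7.30 and 7.43 in NT cells, at 7.02, 6.99 and 7.41 after 2 h of curdlan, and at 8.43, 8.61 and 8.48 after 4 h. The 2 h values overlapped NT through curdlan 2 h replicate 3, and all 4 h values lay above both groups. The change was −0.29 ± 0.11 at 2 h (adjusted p = 0.0808), −0.36 (adjusted p = 0.00578) without both outlying arrays, and 1.08 ± 0.11 at 4 h (adjusted p = 2.11e-06).

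Chac1 encodes an enzyme that degrades glutathione and is a target of ATF4 and CHOP. Its level was 8.52, 8.31 and 8.34 in NT cells, 8.26, 8.27 and 8.14 at 2 h, and 9.43, 9.41 and 9.28 at 4 h. All 2 h values were below NT and all 4 h values above. The change was −0.17 ± 0.06 at 2 h (adjusted p = 0.0736) and 0.98 ± 0.06 at 4 h (adjusted p = 1.74e-08). The value at 2 h was −0.06 without both outlying arrays.

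Asns encodes asparagine synthetase, a target of ATF4 in amino acid shortage. It stood at 10.71, 10.78 and 10.77 in NT cells, at 10.67, 10.58 and 10.64 at 2 h, and at 11.13, 11.15 and 11.18 at 4 h. Here too the 2 h arrays were lowest and the 4 h arrays highest, with no overlap. The change of −0.12 ± 0.04 at 2 h (adjusted p = 0.07) was not past the threshold. At 2 h it was −0.15 (adjusted p = 0.0391) without both outlying arrays and −0.08 (adjusted p = 0.598) after centring. The change of 0.40 ± 0.04 at 4 h (adjusted p = 4.96e-06) passed by adjusted p and not by fold.

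Sesn2 encodes sestrin 2, which restrains the kinase complex mTORC1 when leucine is short and is induced by ATF4 and by oxidative stress. It was at 9.47, 9.46 and 9.42 in NT cells, 9.64, 9.63 and 9.69 at 2 h, and 9.66, 9.67 and 9.56 at 4 h. The 2 h and 4 h arrays overlapped each other and both lay above NT. The changes were 0.21 ± 0.04 at 2 h (adjusted p = 0.00278) and 0.18 ± 0.04 at 4 h (adjusted p = 0.00402), neither of them called.

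**Figure D2:**
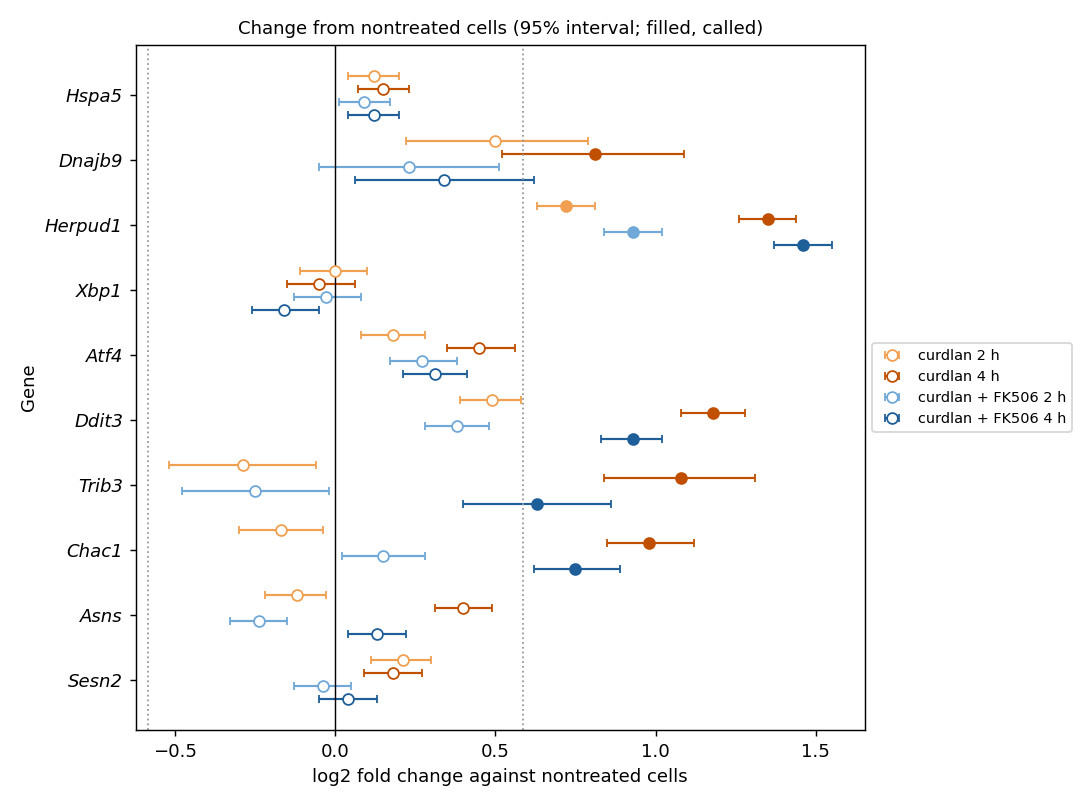
Log2 fold change against NT cells (horizontal axis, log2 units) of each gene (vertical axis) after curdlan for 2 h or 4 h and after curdlan with FK506 for 2 h or 4 h. Points are estimates with 95% intervals, filled where called, and dotted lines mark log2 ± 0.585; Herpud1 was called in all 4 comparisons, Ddit3, Trib3 and Chac1 at 4 h with and without FK506, and Dnajb9 at 4 h with curdlan alone.

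The scaling of the arrays touches these values because the median of all genes at 4 h was −0.116 against NT. It was −0.008 after centring each array on its median and 0.077 with the covariate of unnamed probe sets. The changes of the 10 genes at 4 h ran from −0.05 to 1.35 as deposited, from 0.06 to 1.46 after centring and from −0.18 to 1.44 with the covariate. Over all genes 1007 were higher and 828 lower at 4 h, a split that became 1300 and 545 after centring and 839 and 1327 with the covariate.

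Between 2 h and 4 h of curdlan, 4 of the 10 genes rose and 0 fell, against 2.79% of all genes higher and 1.3% lower. Trib3 rose 2.58-fold (1.37 ± 0.11, adjusted p = 5.03e-07), Chac1 2.22-fold (1.15 ± 0.06, adjusted p = 1.48e-08), Ddit3 1.61-fold (0.69 ± 0.05, adjusted p = 9.55e-08) and Herpud1 1.55-fold (0.63 ± 0.04, adjusted p = 1.19e-07). By adjusted p alone 6 were higher and 0 lower, with Asns (0.52 ± 0.04) and Atf4 (0.28 ± 0.05) added, against 12.4% and 13.7% of all genes. Asns was also called after centring (0.59). The other members had changes of 0.30 ± 0.13 (Dnajb9, adjusted p = 0.111), 0.03 (Hspa5), −0.03 (Sesn2) and −0.04 (Xbp1). The sign for Dnajb9 turned with the covariate (−0.17). The median change of the 10 was 0.41, against −0.07 over all genes.

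The comparison of curdlan with curdlan and FK506 asks how far each level differed when FK506 was present in stimulated cells. Each difference is the level with curdlan alone less the level with both agents, so values above 0 mean a lower level with FK506. By the fold rule 0 of the 10 genes differed at 2 h and 0 at 4 h. Over all genes 0.762% were higher without FK506 and 0.361% lower at 2 h, and 1.53% were higher and 0.211% lower at 4 h. At an unadjusted p under 0.05, 5 of the 10 differed at 2 h and 9 at 4 h, against 19.6% and 20.1% of all genes. By adjusted p alone, 1 was higher (Sesn2) and 2 lower (Herpud1 and Chac1) without FK506 at 2 h, against 3.09% and 4.48% of all genes. At 4 h 5 were higher (Dnajb9, Trib3, Asns, Ddit3 and Chac1) and 0 lower, against 6.03% and 5.64%. The median difference of the 10 was 0.03 at 2 h and 0.19 at 4 h, against 0.03 and −0.03 over all genes.

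Herpud1 was at 11.73, 11.71 and 11.73 with FK506 at 2 h and at 12.31, 12.25 and 12.21 at 4 h. At both times the FK506 arrays lay above those with curdlan alone, with no overlap. The difference was −0.21 ± 0.04 at 2 h (adjusted p = 0.00639) and −0.11 ± 0.04 at 4 h (adjusted p = 0.158). Ddit3 lay on the other side, at 8.12, 8.06 and 8.13 with FK506 at 2 h and 8.69, 8.61 and 8.65 at 4 h, below every array with curdlan alone of the same time. Its difference was 0.11 ± 0.05 at 2 h (adjusted p = 0.218) and 0.25 ± 0.05 at 4 h (adjusted p = 0.00194).

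Dnajb9 had levels of 8.96, 8.84 and 8.96 with FK506 at 2 h and 9.0, 9.04 and 9.04 at 4 h. The FK506 arrays at 4 h lay below all arrays with curdlan alone at 4 h, and at 2 h the groups overlapped through curdlan 2 h replicate 3. The difference was 0.28 ± 0.13 at 2 h (adjusted p = 0.268) and 0.47 ± 0.13 at 4 h (adjusted p = 0.0327), with a 95% interval at 4 h from 0.19 to 0.75. The difference at 4 h was 0.31 (adjusted p = 0.0111) with the covariate, and its adjusted p was 0.111 after centring (0.50) and 0.0623 with a replicate block. At 2 h it was 0.42 (adjusted p = 8.34e-05) without both outlying arrays and 0.50 (adjusted p = 0.0011) with the covariate, both under the fold threshold.

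Trib3 stood at 7.13, 7.31 and 7.11 with FK506 at 2 h and at 8.17, 8.02 and 7.99 at 4 h. The groups overlapped at 2 h and were apart at 4 h, where FK506 arrays were lower, with a difference of 0.45 ± 0.11 (95% interval 0.21 to 0.68, adjusted p = 0.0137) after −0.04 ± 0.11 at 2 h. Chac1 was at 8.53, 8.54 and 8.55 with FK506 at 2 h and 9.19, 9.10 and 9.15 at 4 h, above curdlan alone at 2 h and below it at 4 h on every array. Its differences were −0.32 ± 0.06 (adjusted p = 0.00474) and 0.23 ± 0.06 (adjusted p = 0.0245). Asns was at 10.49, 10.46 and 10.59, then 10.86, 10.88 and 10.91, with differences of 0.12 ± 0.04 (adjusted p = 0.144) and 0.27 ± 0.04 (adjusted p = 0.000836).

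Sesn2 with FK506 was at 9.39, 9.41 and 9.43 at 2 h and 9.52, 9.44 and 9.51 at 4 h, close to the NT level. Its difference was 0.25 ± 0.04 at 2 h (adjusted p = 0.0021, and 0.0985 after centring) and 0.14 ± 0.04 at 4 h (adjusted p = 0.0529). Against NT, Sesn2 with FK506 had changes of −0.04 (95% interval −0.13 to 0.05) and 0.04 (−0.05 to 0.13). The remaining ER and transcription factor genes had small differences: Hspa5 0.03 ± 0.04 at both times (95% interval −0.05 to 0.11), Xbp1 0.02 and 0.11 ± 0.05, and Atf4 −0.10 ± 0.05 and 0.15 ± 0.05 (adjusted p = 0.296 and 0.0728). After centring, the sign at 2 h turned for Hspa5 (−0.04) and Xbp1 (−0.05).

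**Figure D3:**
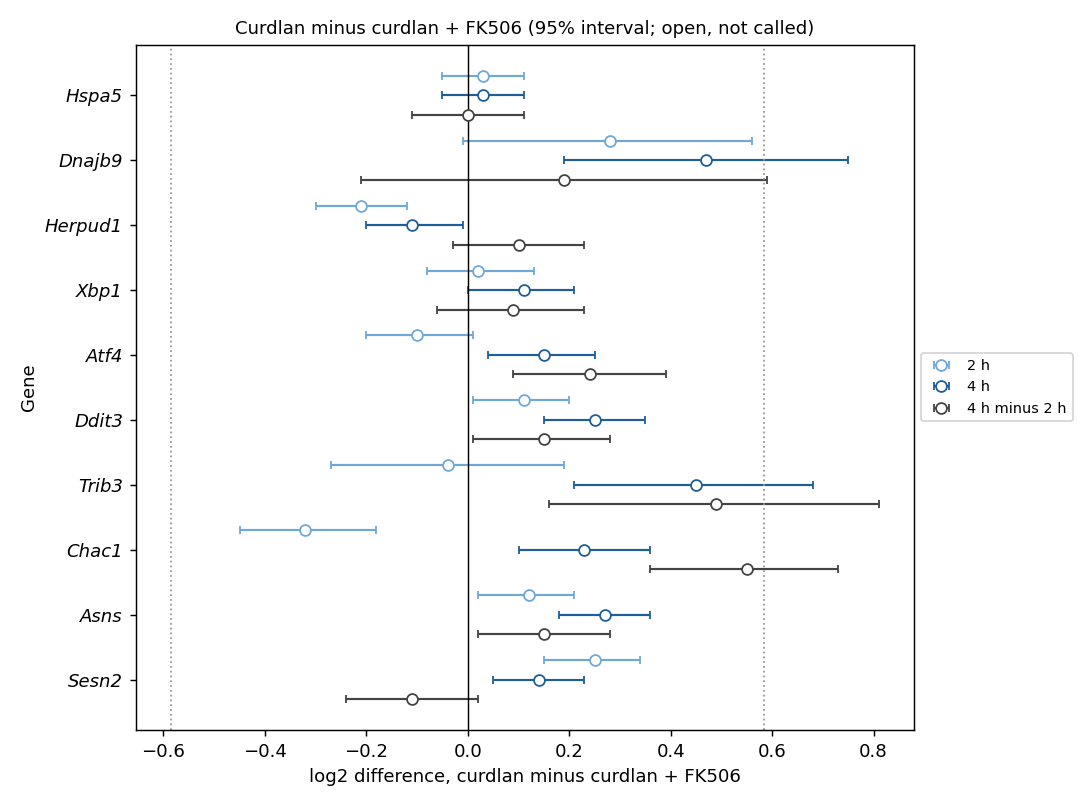
Difference in log2 level between curdlan and curdlan with FK506 (horizontal axis, log2 units) for each gene (vertical axis) at 2 h, at 4 h, and as the 4 h minus the 2 h difference. Points are estimates with 95% intervals, all open because none was called, and dotted lines mark log2 ± 0.585; the Chac1 difference lay below 0 at 2 h (−0.32) and above 0 at 4 h (0.23), and the Herpud1 difference lay below 0 at both times.

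The size of the FK506 difference was compared between the times within the same fit. By the fold rule 0 of the 10 genes were higher and 0 lower, against 1.06% of all genes higher and 0.171% lower, and 5 of the 10 had an unadjusted p under 0.05, against 17.5% of all genes. By adjusted p alone 1 was higher and 0 lower, against 2.98% and 1.39% of all genes. That gene was Chac1, with a change in the difference of 0.55 ± 0.09 (95% interval 0.36 to 0.73, adjusted p = 0.00214). It was called after centring (0.65) and without curdlan 4 h replicate 3 (0.59). Trib3 followed at 0.49 ± 0.15 (adjusted p = 0.103). It was called in several of the alternatives, among them 0.62 (adjusted p = 0.00184) without both outlying arrays. The median of the 10 was 0.15, against −0.05 over all genes.

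Cells given curdlan with FK506 were also set against NT cells. Of the 10 genes, 1 was higher and 0 lower at 2 h, against 1.81% and 0.537% of all genes, and 4 were higher and 0 lower at 4 h, against 2.95% and 2.43%. Herpud1 was the gene raised at 2 h (0.93 ± 0.04, 1.91-fold) and the most raised at 4 h (1.46 ± 0.04, 2.75-fold). At 4 h Ddit3 (0.93 ± 0.05, 1.90-fold), Chac1 (0.75 ± 0.06, 1.69-fold) and Trib3 (0.63 ± 0.11, 1.55-fold) rose as well. Trib3 was not called without NT replicate 2 (0.56) or without FK506 4 h replicate 1 (0.58). Dnajb9 had a change of 0.34 ± 0.13 at 4 h (adjusted p = 0.0768), and −0.04 with the covariate. By adjusted p alone 3 were higher and 1 lower at 2 h, against 7.62% and 10.0%, and 7 were higher and 1 lower at 4 h, against 10.3% and 15.7%. The lower ones were Asns at 2 h (−0.24 ± 0.04, adjusted p = 0.00144) and Xbp1 at 4 h (−0.16 ± 0.05, adjusted p = 0.0283). After centring they were −0.13 (adjusted p = 0.283) and −0.08 (adjusted p = 0.609), so that neither passed. Without both outlying arrays they were −0.26 (adjusted p = 0.00071) and −0.21 (adjusted p = 0.000339). With the covariate each was −0.25 (adjusted p = 0.00267 for Asns and 0.00211 for Xbp1), so that both passed in these 2 settings. The medians of the 10 were 0.12 and 0.32, against −0.08 over all genes at both times. These comparisons share the NT arrays with those of curdlan alone.

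Between 2 h and 4 h of curdlan with FK506, 2 of the 10 rose and 0 fell, against 0.903% and 0.782% of all genes. Trib3 rose 1.84-fold (0.88 ± 0.11, adjusted p = 6.03e-05) and Chac1 1.52-fold (0.61 ± 0.06, adjusted p = 1.15e-05). Chac1 was not called after centring (0.57). By adjusted p alone 5 were higher and 0 lower, against 5.34% and 8.64%, with Ddit3 (0.55 ± 0.05), Herpud1 (0.53 ± 0.04) and Asns (0.37 ± 0.04) added. The median change was 0.24, against 0.01 over all genes.

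Other genes of the pathway were taken by role, 102 in all, of which 90 were measured. At 2 h 4 of the 90 were higher and 1 lower with curdlan than in NT cells, and at 4 h 10 were higher and 1 lower. That is 4.44% of the list higher and 1.11% lower at 2 h, where 2.2% and 1.4% of all genes were called, and 11.1% and 1.11% at 4 h, where 5.05% and 4.15% were. Their median change was −0.04 at 2 h and 0.00 at 4 h, against −0.04 and −0.12 over all genes. By role, of 14 ER chaperone and folding genes, 0 were called at 2 h or 4 h, and their changes at 4 h ran from −0.56 (Sdf2l1, a chaperone partner) to 0.29. Of 9 translocation and secretory pathway genes 0 were called, with Sec24d, a coat protein of ER export vesicles, at −0.37 at 4 h. Of 12 ER-associated degradation genes 1 was called at 4 h, Ubxn4 (0.68 ± 0.06), an ER protein that recruits the segregase p97, and this call was lost with the covariate (0.48).

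Atf3, a transcription factor of the stress and immediate early responses, was at 8.0, 7.72 and 7.81 in NT cells and at 12.18, 12.21 and 12.29 after 2 h of curdlan. It was 20.9-fold higher at 2 h (4.39 ± 0.06) and 17.8-fold higher at 4 h (4.16 ± 0.06). Ppp1r15a, which encodes GADD34, the phosphatase subunit that reverses eIF2 phosphorylation, was at 7.01, 6.84 and 6.82 in NT cells and 9.10, 9.10 and 8.95 at 2 h. It rose 4.46-fold at 2 h (2.16 ± 0.06) and was 4.64-fold above NT at 4 h (2.21 ± 0.06). Cebpb, a C/EBP factor, rose at 4 h (1.04 ± 0.07) and had a change of 0.49 ± 0.07 at 2 h, called without both outlying arrays (0.63). Of the stress sensors and eIF2 kinases, Eif2ak3, which encodes PERK, fell by 0.69 on the log2 scale at 2 h (adjusted p = 7.59e-07), and Eif2ak2, which encodes the RNA-sensing kinase PKR and is also an interferon-stimulated gene, rose at 4 h (0.84 ± 0.14). Eif2ak2 was lowest in its group on both outlying arrays (8.71 and 8.87). Its change at 4 h was 0.66 without them and 0.24 (adjusted p = 0.137), no longer called, with the covariate.

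Of 7 amino acid transport genes, 3 were higher at 4 h. The cystine transporter gene Slc7a11 was at 9.10, 9.54 and 9.61 in NT cells, 11.07, 11.04 and 10.82 at 2 h, and 12.10, 12.09 and 12.13 at 4 h. It rose 2.96-fold at 2 h (1.56 ± 0.11) and 6.47-fold at 4 h (2.69 ± 0.11), and it is also known as a target of the oxidative stress factor NRF2. Slc1a4, a transporter of small neutral amino acids, rose at both times (1.59-fold and 2.01-fold), and the glycine transporter gene Slc6a9 at 4 h (0.93 ± 0.08). Among 9 amino acid and one-carbon synthesis genes Cth, the enzyme that makes cysteine from cystathionine, rose at 4 h (1.02 ± 0.13). Cth was dim, with a mean of 5.41 in NT cells and 6.43 with curdlan at 4 h, where the lower quartile of gene means was 5.28. The 10 aminoacyl-tRNA synthetase genes were not called, and their changes at 4 h ran from 0.01 to 0.38 (Eprs), all above 0. Of 10 stress effectors Bcl2l11, which encodes the death protein BIM, rose at 4 h (1.18 ± 0.07) and Sesn3, a sestrin, fell by 0.68 on the log2 scale. After centring the call for Sesn3 was lost (−0.57), and 0 of the 90 were lower at 4 h.

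**Figure D4:**
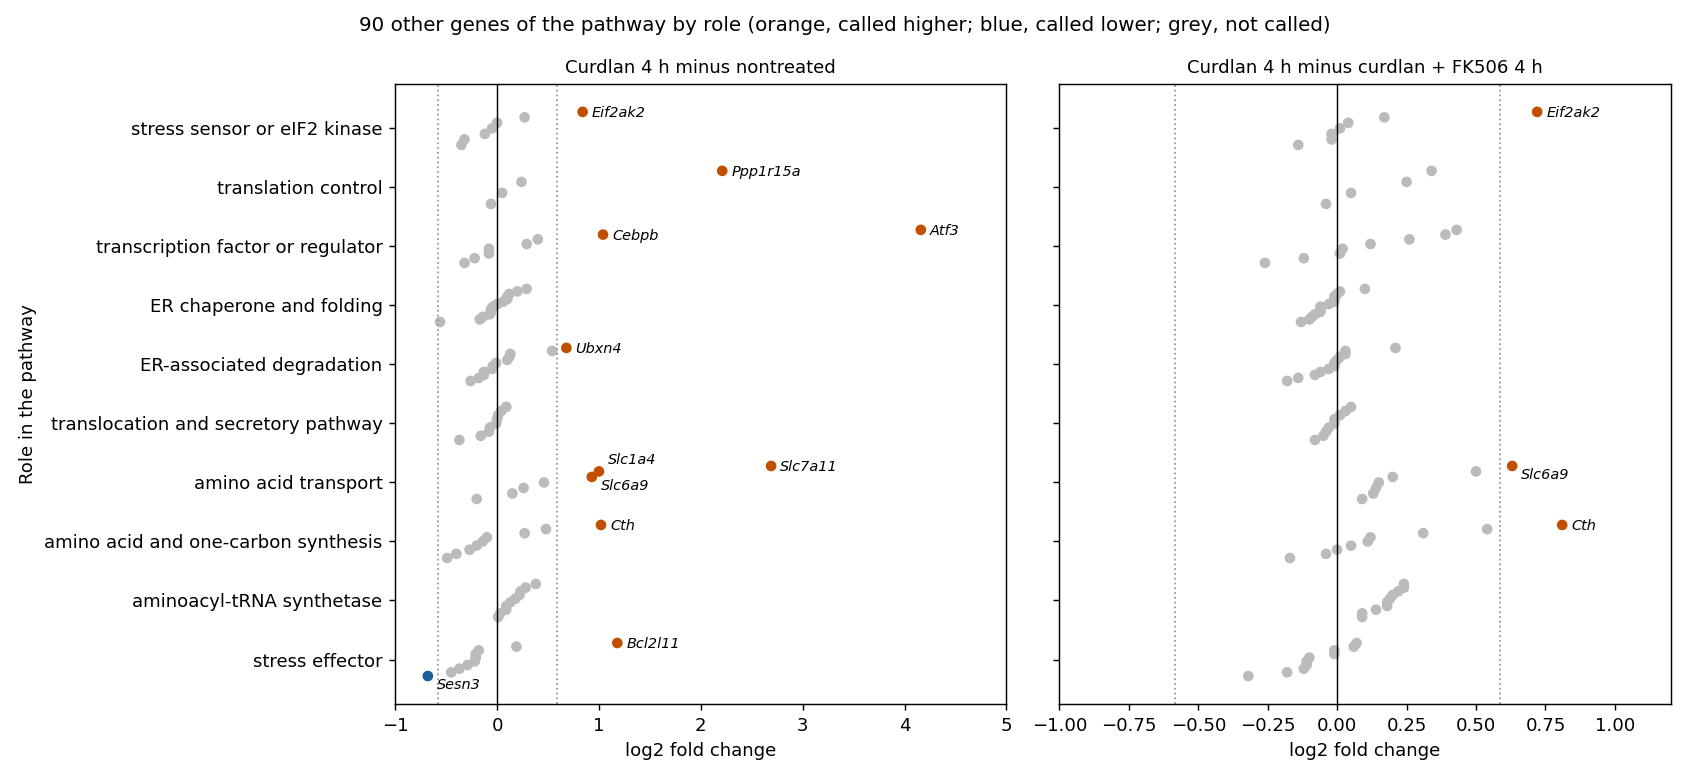
Log2 fold change (horizontal axis, log2 units, with its own range in each panel) of the 90 other genes of the pathway by role (vertical axis) for curdlan 4 h minus NT (left) and curdlan 4 h minus curdlan with FK506 4 h (right). Each point is 1 gene, orange where called higher, blue where called lower and grey otherwise, and dotted lines mark log2 ± 0.585; Atf3 (4.16), Slc7a11 (2.69) and Ppp1r15a (2.21) lay farthest to the right in the left panel, and Cth (0.81), Eif2ak2 (0.72) and Slc6a9 (0.63) were called in the right panel.

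From 2 h to 4 h of curdlan 6 of the 90 rose (6.67%) and 0 fell, against 2.79% and 1.3% of all genes: Slc6a9 (1.22 ± 0.08), Slc7a11 (1.13 ± 0.11), Cth (0.98 ± 0.13), Bcl2l11 (0.75 ± 0.07), Eif2ak2 (0.75 ± 0.14) and Gpt2, an alanine aminotransferase (0.66 ± 0.11). With the covariate the calls for Bcl2l11 (0.56), Eif2ak2 (0.21) and Gpt2 (0.43) were lost. With FK506 1 gene of the list was lower at 2 h (1.11%, against 0.762% of all genes) and 3 at 4 h (3.33%, against 1.53%), and 0 were higher at either time. At 2 h this was Slc1a4, at 8.42, 8.44 and 8.50 with FK506 against 9.72, 9.70 and 9.79 without, a difference of 1.29 ± 0.05 (adjusted p = 1.45e-09). With FK506 at 2 h Slc1a4 was also below its NT level (9.0, 9.07 and 9.13), with a change of −0.62 ± 0.05 that was −0.51, and not called, after centring. At 4 h Cth (0.81 ± 0.13), Eif2ak2 (0.72 ± 0.14) and Slc6a9 (0.63 ± 0.08) were lower with FK506, and the call for Eif2ak2 was lost with the covariate (0.54). Atf3 (0.13 and 0.01) and Slc7a11 (−0.04 and 0.14) had adjusted p between 0.276 and 0.965 in the FK506 comparisons at 2 h and 4 h. By adjusted p alone 3 of the 90 were higher and 3 lower without FK506 at 2 h, against 3.09% and 4.48% of all genes. At 4 h 22 were higher and 3 lower without FK506, against 6.03% and 5.64%. The medians of the 90 were 0.05 from 2 h to 4 h of curdlan, and −0.01 and 0.01 for the FK506 differences at 2 h and 4 h, against −0.07, 0.03 and −0.03 over all genes.

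The course of each gene over the 15 arrays was also set beside that of every other gene by Pearson correlation, given as a description, since arrays of a group share their treatment. For Herpud1 the nearest genes were Myo1g (r = 0.994), a class I myosin of blood cells, Tnip1 (0.994), a partner of the NF-kB inhibitor A20, and Hmox1 (0.99), which encodes haem oxygenase 1. All of them had higher means with FK506 than without at both times: Hmox1 was at 9.84 and 11.22 with curdlan and at 10.25 and 11.52 with FK506. For Ddit3 they were Rhoc (0.994), Scin (0.993), an actin-severing protein, and Clic4 (0.991), whose means were lower with FK506 at both times, Scin being at 9.47 and 11.24 with curdlan and 9.24 and 10.61 with FK506. The nearest genes were picked on these same arrays, so a direction with FK506 shared with Herpud1 or Ddit3 comes at least in part from that choice. Those of Trib3 were Tap1 (0.983), a subunit of the peptide transporter of the ER, Slc49a4 (0.982) and Kdm4a (0.972). Among the 10 genes the pairs with the highest r were Trib3 and Chac1 (0.93), Herpud1 and Ddit3 (0.919) and Trib3 and Asns (0.919), and the lowest was Herpud1 and Xbp1 (−0.623).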

How the data were processed

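RNA from 15 samples of D1 cells was hybridised to Affymetrix Mouse Gene 1.0 ST arrays. The authors deposited log2 values. RMA, affy and R 2.15.2 are named in the submitters' processing notes, and RMA corrects background, equalises the distributions of the arrays by quantiles and combines the probes of a probe set into 1 value. Quantile normalization removes a shift shared by all genes. Of 34760 probe sets, the 21640 with 1 gene symbol were used, with the brightest over 15 arrays for the 954 genes that had several, which left 19937 genes. Dim genes were kept. All 15 arrays entered 1 fit in limma 3.58.1 (R 4.3.3) that gave each group its own mean, with empirical Bayes moderation, two-sided tests, 10 residual degrees of freedom and Benjamini-Hochberg adjustment over the 19937 genes. The script was tested on simulated data. A call needs an adjusted p under 0.05 and a fold of at least 1.5. Over all genes the standard errors of the fold changes had a median of 0.0768 on the log2 scale (0.109 for the difference of differences), and the number of arrays limits the precision.

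Members, pathway list, markers and tests were chosen with earlier results of these data known. The rule for naming other genes took, for each role and comparison, up to the 3 largest called rises and 3 largest called falls, or the largest change where none was called, and for each member the 3 genes with the highest r over 15 arrays. Alternatives were array weights, repeated quantile normalization, centring each array on its median, the median of unnamed probe sets as a covariate, leaving out dim genes, no fold threshold, a replicate block, fitting only the arrays compared, averaging a gene's probe sets, leaving out each array and, added after seeing the data, leaving out both outlying arrays. Promoter windows came from RefSeq (GRCm38.p6).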

Additional observations from a re-analysis of the deposited data

Results flagged for a closer look

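The difference that FK506 made (curdlan minus curdlan with FK506) was itself different at 4 h and 2 h, by limma's test of the interaction at an adjusted p under 0.05, for 1 of the 10 genes and for 7 of the 90 other pathway genes. Of the 90, 6 were higher and 1 lower, where 2.98% of all genes were higher and 1.39% lower by the same rule. For Chac1 it moved by 0.55 ± 0.09 (adjusted p = 0.00214), from −0.32 to 0.23. Eif2ak2 moved by 0.94 ± 0.20 (adjusted p = 0.0167), from −0.23 to 0.72, and by 0.79 without both outlying arrays and 0.51 with the covariate of unnamed probe sets. Cth moved by 0.73 ± 0.19 (adjusted p = 0.0478), from 0.08 to 0.81, and Slc6a9 by 0.57 ± 0.11 (adjusted p = 0.0074), from 0.06 to 0.63. Cebpb moved by 0.44 ± 0.11 (adjusted p = 0.033), from −0.04 to 0.39. Slc1a4 moved the other way, by −0.78 ± 0.07 (adjusted p = 2.05e-05), from 1.29 to 0.50. Cebpg, a C/EBP factor (0.35 ± 0.07, adjusted p = 0.0124), and Eif2ak4, which encodes the amino acid sensing kinase GCN2 (0.37 ± 0.08, adjusted p = 0.0225), were the other two. Of these, Chac1, Slc6a9, Cebpb, Cebpg and Eif2ak4 were under the fold threshold of 1.5.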

How the results depend on the processing

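Across the alternatives 0 values of the 10 genes that were called changed sign. A called value had a fold of at least 1.5, so a turn of sign was unlikely from the start. The counts of calls kept within 1.5 times in 422 of 460 recomputed counts. A count of 0 that stayed 0 was scored as kept, and every count of lower genes among the 10 was 0 in the main fit. The total of 422 therefore does not measure how stable the counts above 0 were.

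With no fold threshold the 10 genes had 6 higher at 2 h and 9 at 4 h of curdlan, 1 higher and 2 lower without FK506 at 2 h, 5 higher at 4 h, 3 higher and 1 lower for curdlan with FK506 against NT at 2 h, 7 and 1 at 4 h, 5 higher from 2 h to 4 h with FK506, and 1 for the change of the FK506 difference. The 90 pathway genes then had 10 higher and 18 lower at 2 h of curdlan, 26 and 22 at 4 h, 34 and 13 from 2 h to 4 h, 3 and 3 for FK506 at 2 h, and 22 and 3 at 4 h. Over all genes 7.19% were higher and 12.9% lower at 2 h of curdlan, and 14.1% and 23.2% at 4 h. From 2 h to 4 h the shares were 12.4% and 13.7%. Those for FK506 were 3.09% and 4.48% at 2 h, and 6.03% and 5.64% at 4 h.

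For the change of the FK506 difference, where 0 of the 10 were called, the count was 1 with array weights (Trib3), 2 after centring (Trib3 and Chac1), 1 with the covariate (Trib3), 1 without both outlying arrays (Trib3), and from 0 to 1 when single arrays were left out, with curdlan 2 h replicate 3 (Trib3) and curdlan 4 h replicate 3 (Chac1) as the arrays that decided it. From 2 h to 4 h with FK506 1 of the 10 was higher after centring. At 2 h of curdlan leaving out single arrays gave from 1 to 2 higher (Dnajb9 added), and for curdlan with FK506 at 4 h from 3 to 4 (Trib3 lost). For the 90 pathway genes, 2 were lower at 2 h with array weights and without both outlying arrays, and from 1 to 2 with single arrays left out, the higher value without NT replicate 1. At 4 h 2 were lower with repeated quantile normalization, 0 after centring and 2 with the covariate, and from 2 h to 4 h 2 were lower with the covariate. The cause was not tested.

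Replicate numbers did not pair the arrays: of 30 pairs of the same number 9 had deviations that correlated above 0.1, with a range of −0.727 to 0.584. With the replicate number as a block, 5 of the 10 genes were higher at 4 h of curdlan and 1 at 2 h, and no count of calls of the 10 genes by the fold rule changed. With the block, adjusted p rose above 0.05 for Hspa5 at 2 h of curdlan (0.0691) and at 4 h of curdlan with FK506 (0.059), and for Dnajb9 in the FK506 comparison at 4 h (0.0623). The number of arrays, 3 per group, limits the precision, most for Dnajb9, whose interval at 2 h ran from −0.01 to 0.56 for the FK506 difference.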
